A study of Homo sapiens with 9 samples.

Results

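The plasminogen activator genes PLAU and PLAT, the receptor gene PLAUR and the serpin genes SERPINE2 and SERPINB2 were followed through RNA-seq gene counts of UPCI-SCC-040, an established line of tongue squamous cell carcinoma. These 5 genes were taken by GENCODE release 29 symbol from the 58233 gene identifiers counted, and all 5 had enough counts to be tested among 15440 genes. The 9 libraries were made from total RNA and fell into 3 groups of 3, which were controls without transforming growth factor beta 1 (TGF-β1) and cells exposed to it at 5 ng/ml for either 48 h or 72 h. Each group held 1 library of passage 12 (replicate 1), passage 13 (replicate 2) and passage 8 (replicate 3) of the same line, so these are passages of 1 tumour line and not separate tumours. The treated cells were kept without serum and antibiotics, the titles of the controls carry 0 h, and the labels do not say that controls were kept without serum. In any comparison with control, the effects of TGF-β1, of absent serum and of culture time therefore cannot be told apart. The comparisons ask how treated cells differ from controls and whether 72 h differs from 48 h. Apart from the passage no label calls the replicates independent cultures. The p-values reflect a spread between libraries of different passages, part of which may be technical.

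Urokinase (PLAU) and tissue plasminogen activator (PLAT) are serine proteases that cut the zymogen plasminogen into plasmin, which degrades fibrin and matrix proteins and activates other proteases. PLAUR anchors urokinase to the cell surface by a lipid tail, which concentrates plasmin formation there. Serpins are suicide inhibitors that trap their target protease in a covalent complex. SERPINE2 (protease nexin-1) is secreted and traps thrombin, urokinase, tissue plasminogen activator and plasmin, and SERPINB2 (plasminogen activator inhibitor-2) is a largely intracellular clade B serpin found in keratinocytes and monocytes. Urokinase and its receptor are well known from the invasive edge of squamous carcinomas.

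Promoter sequences from RefSeq (GRCh38.p14) are shown for the members with the largest rise and the largest fall, since they differ in the motifs they hold. Of the members, 4 had windows in the RefSeq table, with 6 annotated starts among them, and the windows searched were the 250 bases before each start. Motifs were searched on both strands and did not overlap one another in the sequences shown. Capitals mark CCAAT or its reverse complement ATTGG (the CCAAT box) and TGANTCA (the AP-1 motif). SERPINE2 has a pair of annotated starts. The window of its upstream start held 0 CCAAT boxes. The window of its downstream start, on the minus strand at chr2:224031479-224031728, held 7 CCAAT boxes.
SERPINE2: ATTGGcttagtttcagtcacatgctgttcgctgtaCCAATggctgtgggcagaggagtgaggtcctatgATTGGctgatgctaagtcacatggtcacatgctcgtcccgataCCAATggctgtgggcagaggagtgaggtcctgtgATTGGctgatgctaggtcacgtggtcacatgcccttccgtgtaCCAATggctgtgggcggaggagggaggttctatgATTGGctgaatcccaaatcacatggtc
A single CCAAT box or more stood in 32.0% of the 35116 windows of this length in the table, and 7 or more in 7 windows (0.0199%), a limit chosen after the sequence had been seen. The SERPINE2 window repeats itself, also noticed on reading it, with 73.4% identity between bases 77 apart over the 173 bases compared, against a median of 25.4% over the shifts tried. The SERPINB2 window, on the plus strand at chr18:63887455-63887699 with the last 5 bases left out because an exon is annotated there, held 1 AP-1 motif and no CCAAT box.
SERPINB2: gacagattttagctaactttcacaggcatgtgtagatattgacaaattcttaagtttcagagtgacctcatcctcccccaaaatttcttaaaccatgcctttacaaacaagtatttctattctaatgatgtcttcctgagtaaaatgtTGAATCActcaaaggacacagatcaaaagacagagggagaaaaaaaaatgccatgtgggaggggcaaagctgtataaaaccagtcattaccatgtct
The PLAUR window also held 1 AP-1 motif, 186 bases before the start, shown here as a stretch on the minus strand at chr19:43670337-43670366 because the whole window lies in annotated exons.
PLAUR: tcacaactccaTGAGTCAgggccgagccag
The AP-1 motif stood in 6.57% of all windows. It was not found in either window of PLAU or of SERPINE2. Also searched were CAGAC (a SMAD-binding motif, 38% of all windows), GGGCGG (the GC box, 42.6%) and TATAAA (the TATA box, 10.7%). The windows of SERPINB2 and PLAUR each held 1 CAGAC, in neither case wholly within the sequence shown. SERPINB2 also held 1 TATAAA, and the windows of PLAU held 1 CAGAC and 3 GGGCGG in one and 1 CCAAT in the other. The windows of SERPINE2 held 1 GGGCGG beside the CCAAT boxes and 2 at the upstream start. A match is a description of the letters, and gene counts do not tell which start was used.

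Library totals ran from 12544690 to 20438727 counts. Of 8 squamous epithelial markers all 8 were tested, with summed levels of 10540 to 19020 CPM (counts scaled to a common library total with TMM factors) in controls, beside 23620 to 29680 (48 h) and 15240 to 24610 (72 h). Each of 6 endothelial markers had at most 50 counts over all libraries, with none at 0, and their sum was 0.215 to 0.502 CPM in controls, beside 0.368 to 0.815 (48 h) and 0.399 to 2.78 (72 h). Leukocyte markers summed to at most 1.08 CPM in any library, with 5 of 6 at 50 counts or fewer and none at 0. Fibroblast markers summed to 10.2 to 12.6 CPM in controls, beside 36.2 to 89.9 (48 h) and 20.2 to 112 (72 h), through COL1A1 and COL1A2, while the other 6 of 8 had at most 50 counts each and none was at 0. The 72 h library of replicate 3 stood apart, with the nuclear RNA MALAT1 at 1.54% of its counts, beside 0.437% and 0.409% for the remaining pair at 72 h. In bulk RNA, fewer cells of a type and less RNA per cell cannot be told apart.

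Urokinase and protease nexin-1 transcripts were higher than in controls at both times, SERPINB2 was lower at both, and PLAT was higher at 72 h. Protease nexin-1 had the largest rise of these genes, 6.06-fold at 48 h and 11.2-fold at 72 h. Among the 5 genes, 2 rose and 1 fell at 48 h at an adjusted p under 0.05, where 14.9% of all tested genes rose and 16.0% fell (31.0% in all). At 72 h 3 rose and 1 fell, against 20.4% and 19.4% of all tested genes (39.8% in all). The treated and control libraries did not overlap for 3 genes upward and 1 downward at 48 h, as for 25.6% and 28.1% of all tested genes (53.7% in all). At 72 h the same held for 4 and 1, as for 27.3% and 27.7% (55.1% in all). The median log2 fold change of the 5 was 1.01 at 48 h and 1.33 at 72 h, beside medians of -0.0019 and 0.0326 over all tested genes. The 5 were chosen with earlier results of these data known. Their counts and medians therefore do not show that they respond more than other genes, and were not tested against these shares. Adjusted p-values here and below come from the quasi-likelihood test of edgeR, with Benjamini-Hochberg adjustment over all 15440 genes.

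**Figure D1:**
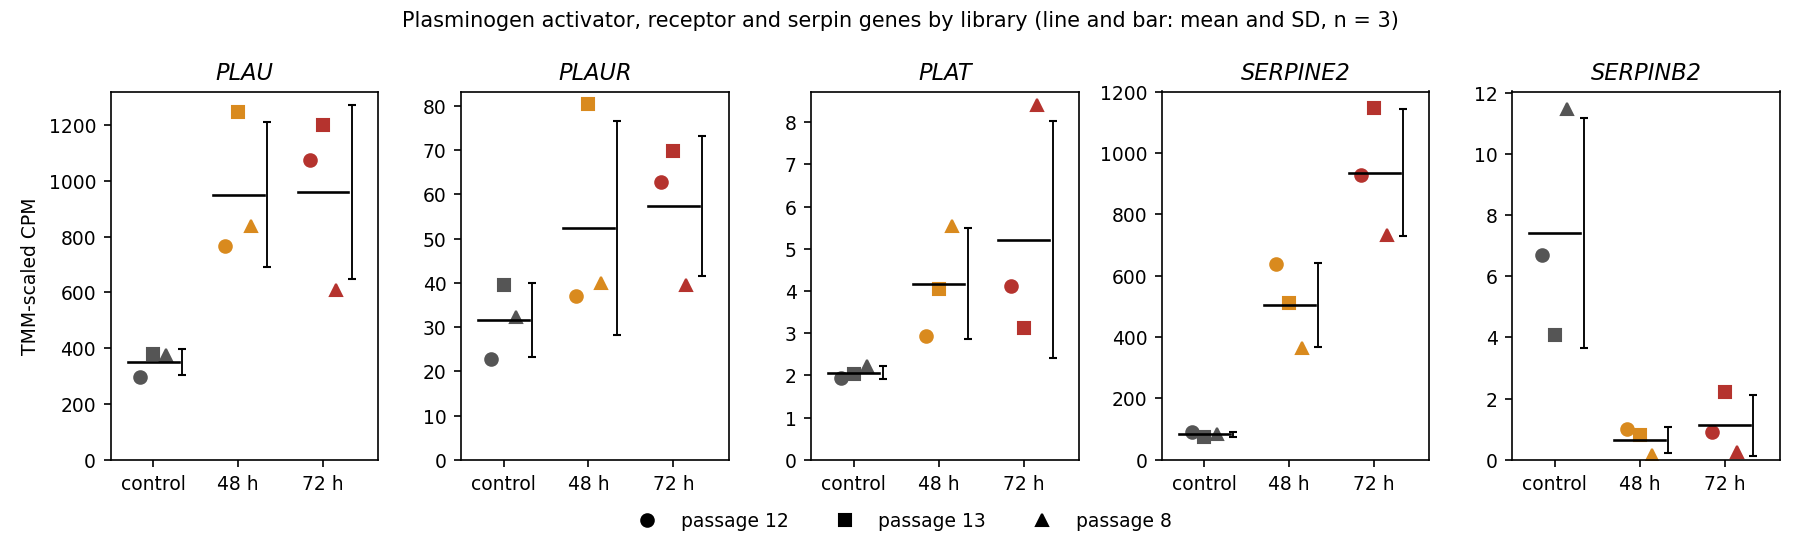
Level of each gene in each library (TMM-scaled CPM, linear axes from 0) in controls, at 48 h and at 72 h of TGF-β1, with symbols for passages, lines for group means and bars for 1 SD (n = 3). SERPINE2 lay between 74.3 and 91.6 CPM in controls and between 732 and 1147 at 72 h, while SERPINB2 was lower in all 6 treated libraries than in any control.

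PLAU (ENSG00000122861, chromosome 10, 73909177 to 73917497, plus strand, GRCh38) was at 295, 378 and 375 CPM in control replicates 1, 2 and 3. It was at 764, 1246 and 838 CPM in the 48 h replicates, and at 1073, 1198 and 607 CPM in the 72 h replicates. All 6 treated libraries lay above all controls, with the lowest of them the 72 h library of passage 8 that stood apart. The log2 fold change was 1.44 ± 0.28 at 48 h (approximate SE; adjusted p = 0.00525) and 1.46 ± 0.28 at 72 h (adjusted p = 0.00355). Within passages 12, 13 and 8 the log2 difference from control was 1.37, 1.72 and 1.16 at 48 h. At 72 h it was 1.86, 1.66 and 0.69, again in the same order of passages. An antisense gene, C10orf55, overlaps 31.1% of the exonic bases of PLAU and had 48 to 122 counts per library against 4897 to 21030 for PLAU. The counting's strand setting is not given in the sources used here, so reads of the pair cannot be told apart in that overlap.

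PLAUR (ENSG00000011422, chromosome 19, 43646095 to 43670547, minus strand), the urokinase receptor gene, was at 22.9, 39.5 and 32.4 CPM in control replicates 1, 2 and 3. It was at 37.0, 80.4 and 39.9 CPM at 48 h, where the lowest library lay below the highest control. At 72 h it was at 62.7, 69.7 and 39.6 CPM, where the lowest library barely exceeded the highest control. The log2 fold changes of 0.73 ± 0.345 and 0.86 ± 0.345 did not pass (adjusted p = 0.137 and 0.0758), with approximate 95% intervals of -0.0504 to 1.51 and 0.0789 to 1.64. With the passage as a block both passed, at 0.67 (adjusted p = 0.0499) and 0.87 (adjusted p = 0.0158). Each passage moved the same way, by 0.69, 1.02 and 0.30 at 48 h and 1.45, 0.82 and 0.29 at 72 h in passages 12, 13 and 8. Without 48 h replicate 2 the value at 48 h was 0.28 (adjusted p = 0.483), and without 72 h replicate 3 the value at 72 h was 1.07 (adjusted p = 0.0398).

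PLAT (ENSG00000104368, chromosome 8) was rare, with 31 to 38 counts per control library and 55 to 136 per treated library. Its level was 1.93, 2.04 and 2.22 CPM in control replicates 1, 2 and 3, then 2.94, 4.04 and 5.54 CPM at 48 h and 4.12, 3.13 and 8.40 CPM at 72 h. Every treated library lay above every control, and the passage 8 library was the highest in each group. The log2 fold change was 1.01 ± 0.39 at 48 h (adjusted p = 0.0749; 0.0358 with the passage as a block) and 1.33 ± 0.39 at 72 h (adjusted p = 0.0215). The highest library was the 72 h library of replicate 3, which stood apart, and without it the value at 72 h was 0.82 (adjusted p = 0.0569). The call at 72 h was also lost without control 1, 2 or 3 (adjusted p = 0.0711, 0.0691 and 0.0551). The call was lost as well without passage 12, 13 or 8 (adjusted p = 0.0933, 0.0627 and 0.0613). PLAT is a product of endothelium in the body, and the summed endothelial markers were highest in the same passage 8 libraries as PLAT. They stood there at 0.502 CPM in the control, 0.815 at 48 h and 2.78 at 72 h, and the other 72 h libraries had 0.789 and 0.399. The sum of 2.78 came mostly from PECAM1 (1.73 CPM, 28 counts) and VWF (0.865 CPM, 14 counts). At 72 h KDR had 0 counts, CDH5 at most 1 and TEK at most 3 per library, and CLDN5 at most 2, beside at most 5 in controls. The sum therefore rests on few counts of few genes, and the part of endothelial markers in the PLAT values was not tested.

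SERPINE2 (ENSG00000135919, chromosome 2, 223975112 to 224039319, minus strand) was at 91.6, 74.3 and 84.1 CPM in control replicates 1, 2 and 3. It was at 639, 511 and 365 CPM at 48 h and at 929, 1147 and 732 CPM at 72 h. The 3 groups did not overlap, and every 72 h library lay above every 48 h library. The log2 fold change was 2.60 ± 0.24 at 48 h (adjusted p = 0.000444) and 3.49 ± 0.25 at 72 h (adjusted p = 0.000144). Both calls held without each library in turn and without each passage (adjusted p of at most 0.0291 and 0.0127).

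SERPINB2 (ENSG00000197632, chromosome 18, 63871692 to 63903890, plus strand) was at 6.69, 4.08 and 11.5 CPM in control replicates 1, 2 and 3, from 76 to 160 counts. At 48 h it was at 0.997, 0.796 and 0.163 CPM, from 2 to 20 counts, and at 72 h at 0.902, 2.22 and 0.247 CPM, from 4 to 39 counts. Passage 8 had the highest control and the lowest library at each treated time. The log2 fold change was -3.42 ± 0.75 at 48 h (adjusted p = 0.01) and -2.70 ± 0.71 at 72 h (adjusted p = 0.0155). The fall was 10.7-fold and 6.49-fold, and within passages 12, 13 and 8 the log2 difference was -2.61, -2.20 and -5.35 at 48 h and -2.74, -0.84 and -4.98 at 72 h. The call at 72 h was lost without control 3 (-2.25, adjusted p = 0.057), the passage 8 control. Without 72 h replicate 2 the value was -3.64 and without 72 h replicate 3 it was -2.23. SERPINB10, the next clade B serpin on the same strand, shares 19.9% of the exonic bases of SERPINB2 and had 0 to 23 counts per library, so reads there may be shared or lost.

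**Figure D2:**
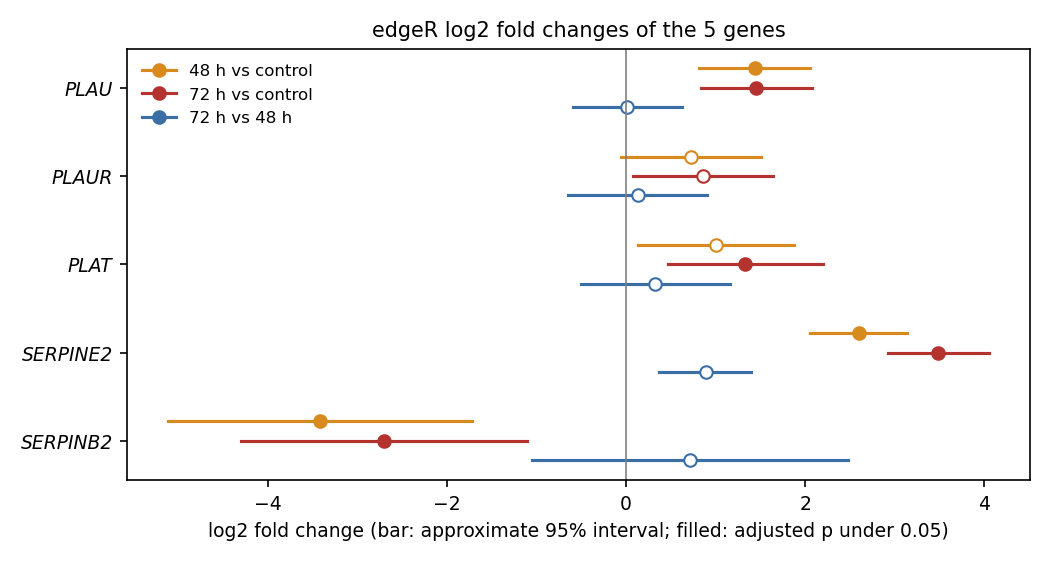
Log2 fold change of each gene (horizontal axis) in the 3 comparisons, with approximate 95% intervals from the quasi-likelihood fit and filled symbols for an adjusted p under 0.05. The intervals of SERPINE2 run from 2.06 to 3.14 at 48 h and from 2.92 to 4.05 at 72 h, those of SERPINB2 lie below 0 at both times, and no symbol is filled between 72 h and 48 h.

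Between 72 h and 48 h none of the 5 genes passed, and 0 of all tested genes did (0%), while 1382 had an unadjusted p under 0.05 and DESeq2 called 50. SERPINE2 had a log2 fold change of 0.89 ± 0.23, or 1.85-fold (unadjusted p = 0.00328, adjusted p = 0.466). It was higher at 72 h in each passage, by 0.54, 1.17 and 1.00 in passages 12, 13 and 8. It was the only one of the 5 genes whose 48 h and 72 h libraries did not overlap, as held upward for 7.07% of all tested genes and downward for 5.17% (12.2% in all). The value for PLAU was 0.02 ± 0.27 (approximate 95% interval -0.596 to 0.627). For PLAUR it was 0.13 ± 0.34 (-0.643 to 0.903), for PLAT 0.33 ± 0.37 (-0.505 to 1.16) and for SERPINB2 0.72 ± 0.78 (-1.05 to 2.48), with adjusted p-values of 0.787 to 0.989.

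Levels between genes were compared as CPM per kilobase of the exons in GENCODE's basic transcript set. In controls PLAU was the highest at 130 ± 17.6 CPM per kilobase (SD, n = 3), followed by SERPINE2 at 26.5 ± 2.77 and PLAUR at 14.4 ± 3.8. SERPINB2 stood at 3.41 ± 1.72 and PLAT at 0.748 ± 0.0535, and no neighbours in this order overlapped in range. At 48 h the order was PLAU at 353 ± 96.6, SERPINE2 at 160.5 ± 43.5, PLAUR at 23.8 ± 11, PLAT at 1.51 ± 0.473 and SERPINB2 at 0.30 ± 0.201 CPM per kilobase, again without overlap. PLAT and SERPINB2 had thus changed places. At 72 h PLAU, at 226 to 446 CPM per kilobase, overlapped SERPINE2, at 232 to 364. The other neighbours did not overlap, with PLAUR at 26.1 ± 7.17, PLAT at 1.89 ± 1.02 and SERPINB2 at 0.518 ± 0.463. Among 12686 tested protein-coding genes, the level of SERPINE2 per kilobase exceeded 80.76% in controls, 98.02% at 48 h and 99.18% at 72 h. PLAU exceeded 97.0%, 99.3% and 99.4%, and SERPINB2 exceeded 33.2%, 6.32% and 9.63%.

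The balance of activator to serpin counts was read as a ratio within each library, which does not depend on scaling between libraries. It was not corrected for gene length, so equal counts do not mean equal transcript levels. PLAU had 3.22, 5.10 and 4.46 counts per count of SERPINE2 in control replicates 1, 2 and 3. It had 1.20, 2.44 and 2.29 at 48 h and 1.16, 1.04 and 0.83 at 72 h. The 3 groups did not overlap, and the ratio was lower at 48 h than in controls and lower at 72 h than at 48 h in all 3 passages. The log2 ratio averaged 2.06 ± 0.34 without treatment, 0.91 ± 0.57 at 48 h and 0.0005 ± 0.245 at 72 h (SD, n = 3). The differences were -1.15, -2.06 and, for 72 h against 48 h, -0.91, each with an exact two-sided permutation p of 0.1, the smallest that 3 against 3 allows, so that no such test could pass.

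Against control, both ratios to SERPINB2 rose, while PLAT to SERPINE2 fell as PLAU to SERPINE2 had. PLAU had 32.6 to 92.1 counts per count of SERPINB2 in controls, beside 748 to 4110 (48 h) and 532 to 2183 (72 h), a log2 difference of 5.03 at 48 h and 4.44 at 72 h. PLAT had 0.0214 to 0.0278 counts per count of SERPINE2 in controls, beside 0.00464 to 0.0153 (48 h) and 0.00276 to 0.0115 (72 h), differences of -1.61 and -2.27. PLAT had fewer counts than SERPINB2 in each control, at a ratio of 0.196 to 0.503, and more in each treated library, at 2.90 to 27.4 and 1.41 to 30.3, differences of 4.58 and 4.23. Each of these comparisons with control had an exact permutation p of 0.1 and a Benjamini-Hochberg adjusted p of 0.133 over 12 tests, and no treated library overlapped a control. PLAU to SERPINE2 was the only one of the 4 ratios whose 48 h and 72 h libraries did not overlap. The exact permutation p between these times was 0.6 for PLAU to SERPINB2, 0.4 for PLAT to SERPINE2 and 0.9 for PLAT to SERPINB2.

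**Figure D3:**
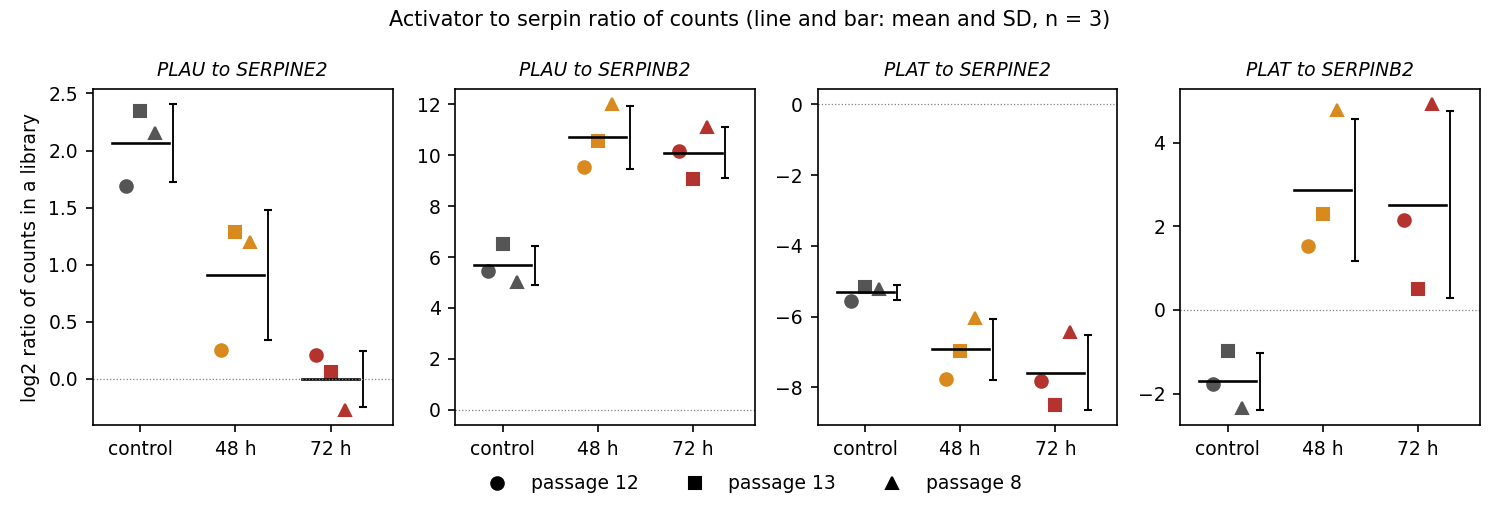
Log2 ratio of activator to serpin counts within each library (vertical axis; each panel has its own range and the dotted line marks equal counts), with symbols for passages, lines for means and bars for 1 SD (n = 3). The PLAU to SERPINE2 log2 ratio averaged 2.06 in controls, 0.91 at 48 h and about 0 at 72 h, while both ratios to SERPINB2 were higher in all treated libraries than in any control.

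Genes around the 5 were read from lists of the plasminogen system. Of all tested genes, 14.9% rose and 16.0% fell at 48 h (31.0% in all). At 72 h 20.4% rose and 19.4% fell (39.8% in all). The counts of called genes in this and the later lists were not tested against these shares, and the lists were chosen with earlier results of these data known. Plasminogen itself (PLG), which the liver makes, had 1 count over all 9 libraries. Of 10 genes for plasminogen binding and for uptake of protease complexes, all tested, 4 rose and 1 fell at 48 h and 3 rose and 1 fell at 72 h, with median log2 fold changes of 0.51 and 0.42. MRC2, an endocytic collagen receptor that associates with the urokinase receptor, averaged 54.0 ± 4.51 CPM without treatment, 193 ± 21.4 after 48 h and 224 ± 81.7 after 72 h. Its log2 fold changes were 1.84 ± 0.23 and 2.05 ± 0.23 (adjusted p = 0.000994 and 0.000464). S100A10, the annexin A2 partner that binds plasminogen, rose by 0.77 ± 0.17 and 0.73 ± 0.17 (adjusted p = 0.00817 and 0.00755). ENO1, a glycolytic enzyme that also serves as a plasminogen receptor, fell by 0.84 ± 0.175 and 0.79 ± 0.175 (adjusted p = 0.00698 and 0.0065). Only 2 genes of the list rose at 48 h without control 1 or control 2, and 2 fell at 72 h with the passage as a block, where PLGRKT, a plasminogen receptor, joined ENO1 (adjusted p = 0.03).

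Of 8 genes for plasminogen and trypsin-like proteases that activate related zymogens, 3 were tested, and 1 rose at each time and none fell, with medians of -0.24 and 0.03. It was HGFAC, the activator of hepatocyte growth factor, which was rare at 0.353 ± 0.134 CPM in controls and at 1.40 ± 0.73 at 48 h and 2.28 ± 0.0748 at 72 h. Its log2 fold changes were 1.96 ± 0.44 and 2.63 ± 0.43 (adjusted p = 0.00982 and 0.00181). With 3 to 9 counts per control library, HGFAC passed the filter on low counts through the treated libraries, where it was high. These calls are therefore no support for a rise. F12, the coagulation factor XII gene, fell at 48 h without 48 h replicate 2 or 72 h replicate 3 (adjusted p = 0.0412 and 0.0477).

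Of 13 other inhibitors of plasmin and related proteases, 5 were tested, of which 1 rose at 48 h and 4 at 72 h and none fell, with medians of 0.56 and 1.16. SERPINF2, the antiplasmin serpin, was at 6 to 9 counts per control library and 27 to 53 per treated library. It rose by 1.87 ± 0.38 at 48 h and 2.35 ± 0.37 at 72 h (adjusted p = 0.00622 and 0.00152). SPINT2, a Kunitz inhibitor of cell-surface proteases, averaged 317 ± 25.6 CPM without treatment and 709 ± 224 after 72 h (log2 fold change 1.16 ± 0.21, adjusted p = 0.00276). SERPINI1, the neuroserpin gene, rose by 1.69 ± 0.58 at 72 h (adjusted p = 0.0415). This call was lost on leaving out any 1 control, replicate 1 or 2 at 48 h, or replicate 3 at 72 h (adjusted p from 0.0526 to 0.171). SERPINI1 had 5 to 10 counts per control library. Both SERPINF2 and SERPINI1 passed the filter on low counts through the treated libraries, where they were high. Their calls are therefore no support for a rise, and the counts and medians of this list include them. At 48 h the count was 2 with the passage as a block and 3 without 72 h replicate 3. That library enters the comparison through the filter, the scaling and the shared spread. Without it SERPINA1, the antitrypsin gene, fell (adjusted p = 0.0373). SERPINA1 passed the filter in that fit through controls, where it was high, so this call is no support for a fall.

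Of 7 genes for tissue factor and protease receptors, 5 were tested, and 2 rose and 1 fell at each time, with medians of 0.26 and 0.37. THBD, the thrombomodulin gene, whose product binds thrombin at the cell surface, averaged 7.39 ± 2.11 CPM without treatment, 2.70 ± 1.68 after 48 h and 1.76 ± 0.457 after 72 h. Its log2 fold changes were -1.43 ± 0.41 and -2.07 ± 0.43 (adjusted p = 0.0263 and 0.00489). F2R and F2RL1, receptors that proteases switch on by cutting them, rose by 1.37 ± 0.32 and 0.90 ± 0.195 at 48 h (adjusted p = 0.0125 and 0.00821). At 72 h they rose by 1.05 ± 0.32 and 1.02 ± 0.195 (adjusted p = 0.0275 and 0.00351). THBD lost its call at 48 h on leaving out control 1 or 2 or replicate 2 or 3 at 48 h (adjusted p from 0.081 to 0.0898). F2R lost its call at 48 h without control 2 (0.0546) and at 72 h without control 1, control 2 or 72 h replicate 3 (0.0837, 0.0953 and 0.0778).

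Of 9 growth factors and receptors of the pathways that plasmin or the activators feed, 7 were tested, and 4 rose and 0 fell at each time, with medians of 0.62 and 1.57. The median at 72 h was 0.531 without 72 h replicate 3 and 1.01 with the passage as a block. Without 48 h replicate 2, 1 gene of the list fell at each time, PDGFC, a platelet-derived growth factor that proteases activate (adjusted p = 0.0194 and 0.033). VEGFA, an angiogenic factor, averaged 227 ± 66.0 CPM without treatment, 728 ± 248 after 48 h and 1200.0 ± 477 after 72 h (log2 fold changes 1.68 ± 0.36 and 2.40 ± 0.37, adjusted p = 0.0083 and 0.00144). MST1R, the receptor of macrophage-stimulating protein, rose by 1.22 ± 0.24 and 1.57 ± 0.24 (adjusted p = 0.0058 and 0.00139). MST1, its ligand, was at 11 to 18 counts per control library and rose by 1.30 ± 0.43 and 1.82 ± 0.42 (adjusted p = 0.0429 and 0.0081). MST1 lost its call at 48 h without any 1 control or any 1 library at 48 h (0.0612 to 0.149), and 2 genes of the list rose at 48 h without control 3. MST1 has near-identical pseudogene copies, so its counts are uncertain.

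**Figure D4:**
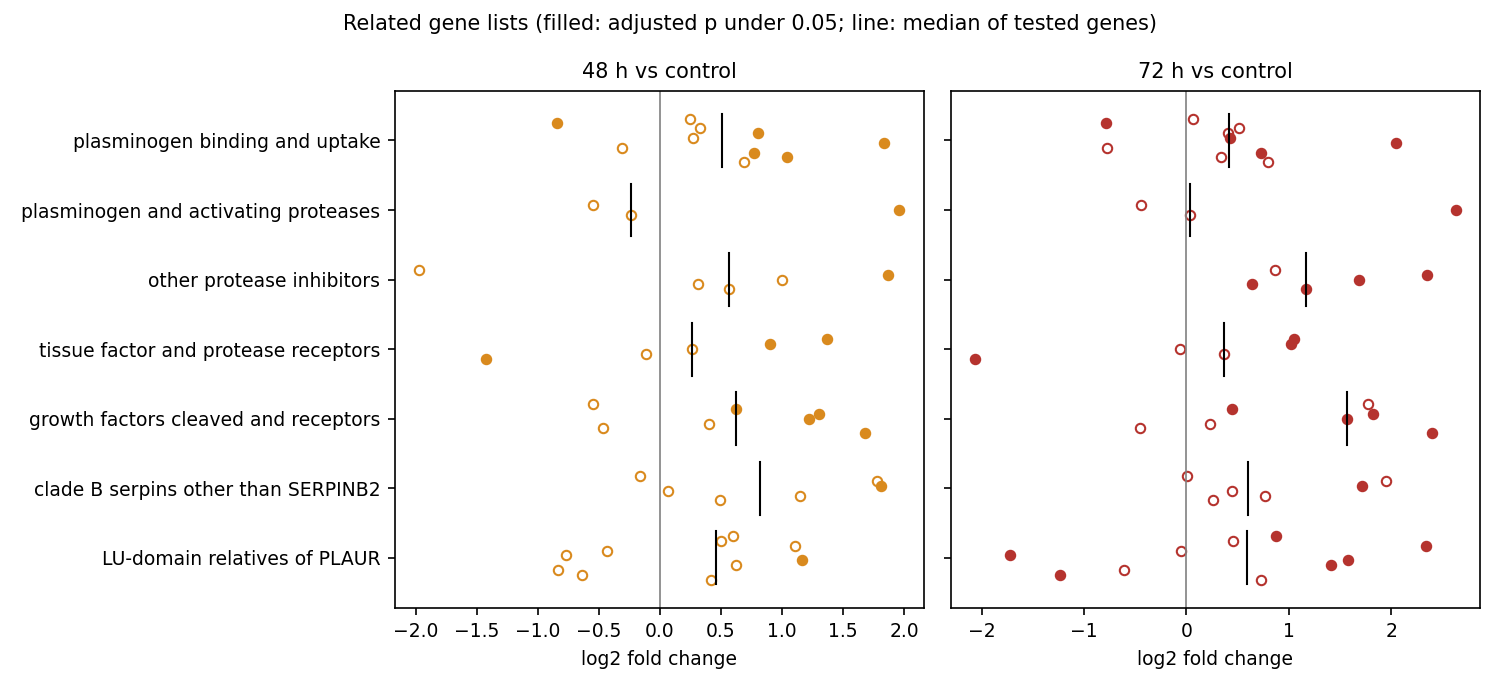
Log2 fold change of each tested gene of the 7 related lists (horizontal axes) at 48 h and 72 h against control, with filled symbols for an adjusted p under 0.05 and a line at each list's median. The medians lie between -0.24 and 0.82 at 48 h and between 0.03 and 1.57 at 72 h, and genes of most lists lie on both sides of 0.

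SERPINB2 lies in a cluster of clade B serpins on chromosome 18, and SERPINB10, which overlaps it, had few counts in every library. For SERPINB10 the 48 h libraries overlapped the controls. Of 12 other clade B serpins, 6 were tested, and 1 rose and 0 fell at each time, with medians of 0.82 and 0.60. On leaving out single libraries the medians ranged from 0.258 to 0.971 at 48 h and from 0.154 to 0.707 at 72 h. The gene that rose was SERPINB5, the maspin gene, a non-inhibitory serpin of epithelial cells, which averaged 85.0 ± 15.2 CPM without treatment, 298 ± 12.8 after 48 h and 280 ± 46.1 after 72 h. Its log2 fold changes were 1.81 ± 0.17 and 1.72 ± 0.17 (adjusted p = 0.000444 and 0.000279). SERPINB7, the nearest neighbour on the side of lower coordinates, had values of 1.15 and 0.76 (adjusted p = 0.201 and 0.363), or 1.00 and 0.71 with the passage as a block (adjusted p = 0.0159 and 0.0476). SERPINB8, on the other side, had 0.49 and 0.26 (adjusted p = 0.123 and 0.376). SERPINB13 varied most, at 6.31 ± 4.3 CPM in controls, 21.9 ± 25.5 at 48 h and 24.6 ± 35.1 at 72 h, with 27 to 1051 counts per library at 72 h, and did not pass (log2 fold changes 1.78 and 1.95, adjusted p = 0.356 and 0.285). SERPINB3, SERPINB4, SERPINB10, SERPINB11 and SERPINB12 had at most 48 counts each over all libraries and did not pass the filter on low counts. SERPINB10 had 23, 5 and 9 counts in control replicates 1, 2 and 3, then 6, 2 and 1 at 48 h and 0, 0 and 2 at 72 h. SERPINB3 had 12, 4 and 1 counts, then 1, 2 and 0 at 48 h and 0, 0 and 1 at 72 h. For SERPINB10 every 72 h library lay below every control, while for SERPINB3 the lowest control and the highest 72 h library each had 1 count. SERPINB10 was called lower at 72 h in 7 of the 9 fits that left out 1 library (adjusted p from 0.00896 to 0.0359). These were the fits without control 2, without any 1 library at 48 h and without any 1 at 72 h. All of them kept controls 1 and 3, with 23 and 9 counts, while the treated libraries had 0 to 6. SERPINB10 thus passed the filter through the controls, where it was high, so these calls are no support for a fall. How far reads shared with SERPINB2 add to these counts was not tested.

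PLAUR belongs to a family of proteins built from LU domains, small folds held by disulfide bonds. Of 15 relatives 10 were tested, of which 1 rose and 0 fell at 48 h and 4 rose and 2 fell at 72 h, with medians of 0.46 and 0.59. LYPD3, a close relative of PLAUR found in squamous epithelium, averaged 19.3 ± 8.67 CPM without treatment, 42.9 ± 15.2 after 48 h and 57.4 ± 8.88 after 72 h (log2 fold changes 1.16 ± 0.36 and 1.58 ± 0.37, adjusted p = 0.0398 and 0.00957). LY6E rose by 2.34 ± 0.47 at 72 h (adjusted p = 0.00518), and LYPD1 fell by 1.73 ± 0.49 (adjusted p = 0.0223). LYPD3 lost its call at 48 h with the passage as a block (adjusted p = 0.0734) and on leaving out control 2 or 3, replicate 1 or 2 at 48 h, or replicate 1 at 72 h (0.0532 to 0.119). LYPD1 lost its call without control 2 or 72 h replicate 1 (0.0746 and 0.0641). The number of relatives that rose at 48 h was 2 with the passage as a block, 3 without 72 h replicate 3, and 0 on leaving out control 2 or 3 or replicate 1 of either time. At 72 h it was 2 without control 1 or control 2. LY6K fell at 48 h without 48 h replicate 2 (adjusted p = 0.0496), and without 48 h replicate 1 or 2 the median at 48 h was 0.0432 or 0.0527.

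Genes whose pattern was most like each member were ranked by Pearson's r of log2 CPM over the 9 libraries, which share the treatment, among 9448 genes with a mean of at least 10 CPM. For PLAU they were SEMA7A (0.97), SPRY4 (0.97) and SYNE3 (0.97), and for PLAUR HSPA5 (0.97), RABEP2 (0.97) and HYOU1 (0.96). For SERPINE2 they were TBC1D25 (0.99), ATG9A (0.99) and LMBR1L (0.99). For PLAT they were NSDHL (0.99), SLC26A2 (0.98) and MVD (0.98), and for SERPINB2 RPL9 (0.97), ZC3H8 (0.97) and PARD6B (0.96). Among the members themselves r was 0.89 between PLAU and PLAUR, 0.88 between PLAU and SERPINE2, 0.68 between PLAT and SERPINE2 and -0.90 between PLAT and SERPINB2. It was 0.69 between PLAUR and SERPINE2, 0.54 between PLAU and PLAT and 0.36 between PLAUR and PLAT. With SERPINB2 it was -0.70 for SERPINE2, -0.64 for PLAU and -0.39 for PLAUR.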

How the data were processed

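Per the labels, RNA from silica columns was made into libraries with a NEBNext Ultra RNA kit. Each deposited table holds the raw read count of every gene. Build hg38 and the tools STAR 2.5.2a, featureCounts 1.5.0-p1, FastQC 0.11.5 and bcl2fastq 2.17.1.14 are named in the submitters' processing notes. The release of the annotation, the strand setting and the handling of multi-mapping reads were not given in the sources used here. GENCODE release 29 matched 57895 of 58233 identifiers.

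Tests used edgeR 4.0.16 (R 4.3.3) with TMM scaling, filterByExpr, 1 model of group over 9 libraries, robust quasi-likelihood tests, and adjustment after Benjamini and Hochberg with a threshold of 0.05. Approximate standard errors divide the size of a log2 fold change by the root of its F statistic. Within-passage differences used log2 CPM with a prior count of 2, and ratios a prior of 0.5. Members and lists were chosen with earlier results of these data known. All members were named, with up to 3 called genes of each list by size of mean change, chromosome 18 clade B serpins, and the 3 genes most like each member. SERPINA1, F12, PLGRKT, PDGFC and LY6K were named outside this rule, after their values were seen, because an alternative called them. Some genes of the pathway are not reported here.

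Same-numbered libraries share a passage per the labels, which is where the pairing comes from. Their deviations from group means correlated at 0.11, 0.078 and 0.12 (48 h and control), 0.038, 0.11 and 0.10 (72 h and control) and -0.025, 0.49 and 0.49 (72 h and 48 h). Replicates differed by more than sampling noise (chi-square per degree of freedom 8.99 to 159). Alternatives included DESeq2 1.42.0, edgeR with size factors of DESeq2 or upper-quartile scaling, no filter, 1 CPM in 3 libraries, only the 2 groups compared, the passage block and omission of libraries or passages.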

Additional observations from a re-analysis of the deposited data

How the results depend on the processing

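No comparison of the 5 genes or 4 ratios with control changed direction under any alternative, and SERPINE2 kept both calls under all of them. The log2 fold change of PLAT at 48 h passed with DESeq2 (1.03), without the filter (1.02), in a fit of only the 2 groups (1.04) and with the replicate block (0.96). That of PLAUR passed at 48 h without the filter (0.74) and with the block (0.67). At 72 h PLAUR passed with DESeq2 (0.87), without the filter (0.88), in a fit of the 2 groups (0.87) and with the block (0.87). Leaving out a library of the group not compared also changed calls. That group enters the fit through the filter, the scaling and the shared spread, and their parts were not told apart. At 48 h 3 of the 5 genes rose, instead of 2, without 72 h replicate 2 or 3. At 72 h 4 rose, instead of 3, without 48 h replicate 2. Between 72 h and 48 h SERPINE2 passed without the filter (0.90, adjusted p = 0.000399), where 211 genes were called, and DESeq2 called 50. The causes were not tested. The block, by passage, changed no other call of the 5 genes.

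Leaving out a library or a passage gave 1.20 to 1.58 (48 h) and 1.26 to 1.76 (72 h) for PLAU and -3.92 to -2.56 and -3.94 to -1.78 for SERPINB2. At 72 h it gave 0.60 to 1.09 for PLAUR and 0.82 to 1.59 for PLAT. PLAU lost its call without passage 12 (adjusted p = 0.0733 and 0.0629) and, at 48 h, without passage 13 (0.056), and SERPINB2 without passage 12 (0.0982 and 0.124). PLAT lost its call at 72 h without passage 12, 13 or 8 (0.0933, 0.0627 and 0.0613). The count of called genes was 765 to 4599 at 48 h (4779 with all libraries) and 2602 to 6004 at 72 h (6152 with all). Between 72 h and 48 h the sign changed, with ranges of -0.21 to 0.26 for PLAU, -0.14 to 0.58 for PLAUR, -0.19 to 0.58 for PLAT and -0.25 to 1.29 for SERPINB2. The log2 ratios of PLAU and PLAT to SERPINB2 ranged from -1.21 to 0.0554 and -1.55 to 0.67. Depth limits SERPINB2 after treatment and PLAT throughout, since both rest on few counts.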
